A study of Mus musculus with 2 samples.

Results

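Basement membranes are thin sheets of matrix that underlie epithelia and blood vessels and surround some mesenchymal cells. Type IV collagen and laminin each assemble into a network, and nidogen and perlecan tie the networks together. The liver sinusoid is unusual in having little organised basement membrane in health, and deposition of basement membrane proteins in the space beneath its endothelium is a known feature of liver fibrosis. The 9 genes described here code for such components: the type IV collagen chains Col4a1 and Col4a2, the collagens Col15a1 and Col18a1, the laminin chains Lama4, Lamb1 and Lamc1, nidogen-1 (Nid1) and perlecan (Hspg2). They were chosen by symbol, and each matched 1 of the 32285 gene rows.

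Nonparenchymal cells, the liver cells other than hepatocytes, came from Mfap2+/+ (wild-type) and Mfap2-/- (knockout) mice. Mice of both genotypes had received carbon tetrachloride (CCl4), a hepatotoxin used to produce liver fibrosis, by intraperitoneal injection over 8 weeks, and no untreated mice are analysed here. Mfap2 codes for a small glycoprotein found on fibrillin microfibrils. Each genotype was 1 droplet single-cell library, and the age, the strain and the number of animals behind a library are not given in the sources used here. With 1 library per genotype there is no test between genotypes, and every interval given is a 95% interval of counting error only. A difference between the libraries can therefore be a difference between animals or preparations as well as between genotypes, and these cannot be told apart.

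Mfap2, the targeted gene, had 211 UMIs (unique molecular identifiers, which mark single RNA molecules) over all wild-type cells and 2 over all knockout cells. Its stellate-like count was 76 for the wild type against 0 for the knockout, a count of 0 that allows up to 1.91 UMIs per 1000000 UMIs of the class (CPM). Total depth was 82499307 UMIs over 11783 wild-type barcodes (median 4685) and 118226367 UMIs over 12872 knockout barcodes (median 6511). A set of 40 barcode sequences occurred in both libraries. Cells were classed from marker genes that include no member of the set, into sinusoidal-like endothelial cells (690 wild-type and 1098 knockout cells), endothelial cells positive for the vessel gene Vwf (45 and 46), stellate-like cells (130 and 121), the main matrix-producing mesenchymal cells of the liver, and cholangiocyte-like cells (33 and 53), the epithelium of bile ducts. The rule left 49.4% of wild-type and 45.0% of knockout cells between lineages, and these cells held between 30.9% and 79.5% of a member's UMIs. A further 9.08% and 8.09% had too few markers for any lineage. In each of the 4 classes at least 1 UMI of every marker of its own lineage list was present. Neutrophil and haemoglobin RNA was found in all of them. The 8 neutrophil markers summed to 578 to 915 CPM over these classes and libraries, and the 8 erythroid markers to 129 to 554 CPM with the higher sums in the wild type. Neutrophil-like cells served as the reference for free RNA and held the members at 0.900 to 18.3 CPM. A level near that of the same gene in neutrophil-like cells is called background.

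The members did not share a single cellular pattern. Col4a1, Col4a2 and Nid1 were high in both endothelial and stellate-like cells. Among the 4 classes, Lamb1 and Col15a1 were found above background mainly in stellate-like cells and Lama4 mainly in endothelial and cholangiocyte-like cells. Hspg2 was found in all 4 classes, with its highest level among them in sinusoidal-like cells. Lamc1 was present in all 4 classes and also in B-like and T or NK-like lymphocytes. For each of the 9 members the class with the higher level, sinusoidal-like or stellate-like, was the same in both libraries. After every cell was thinned to 1000 UMIs this held for 6 of 9, and for 7 of 9 once the 5 richest cells per library were left out.

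**Figure D1:**
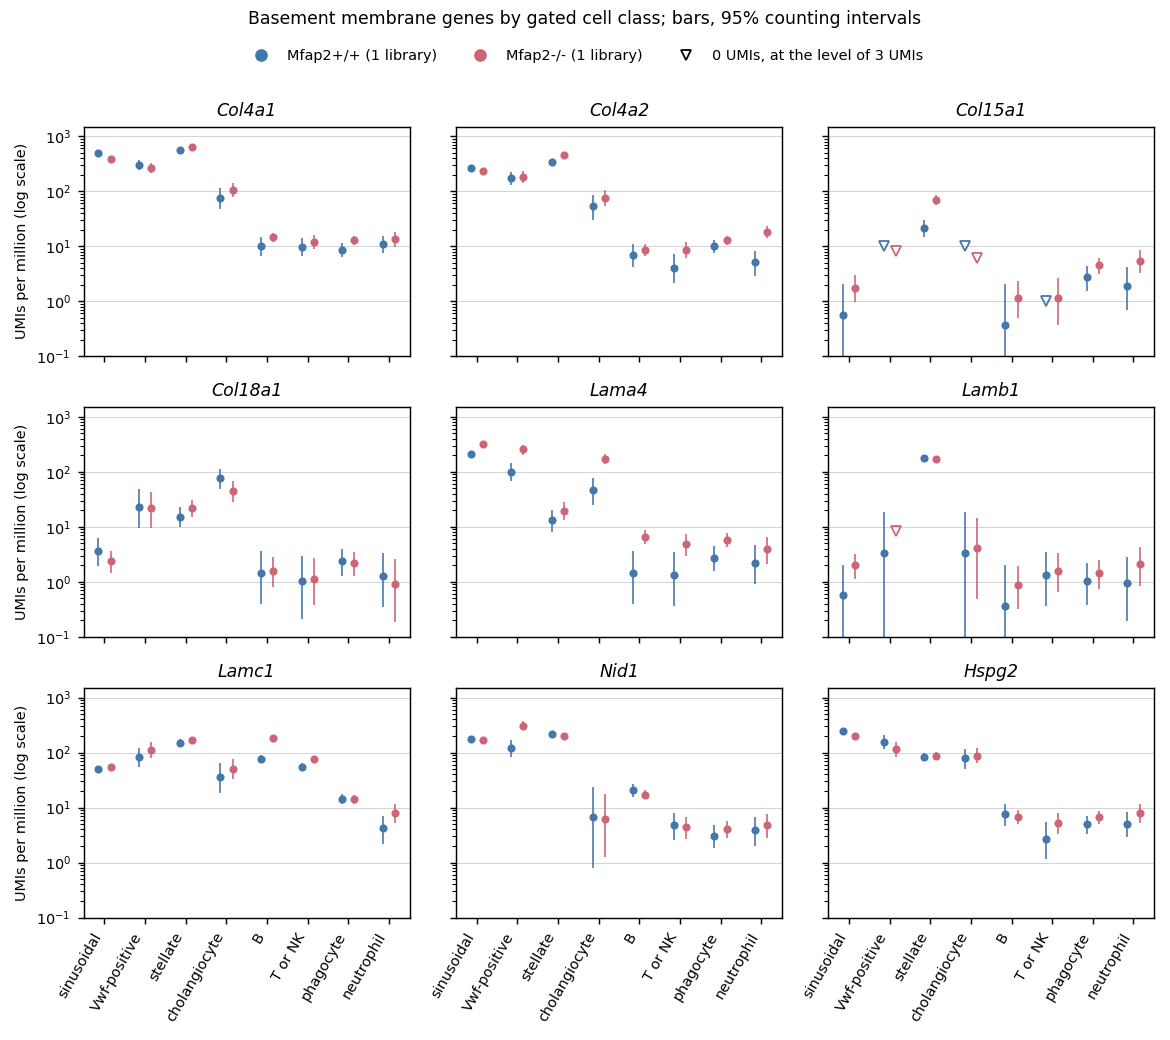
Level of each gene in CPM (log scale) in 8 gated cell classes, with 1 point per library and bars for 95% counting intervals; bars that reach the lower edge continue below it, and open triangles mark 0 UMIs at the level that 3 UMIs would give. Lamb1 stands at 181 and 171 CPM in stellate-like cells and at most at 4.10 CPM in the other classes shown, whereas Lamc1 reaches 184 CPM in B-like knockout cells.

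Col4a1 (ENSMUSG00000031502) and Col4a2 (ENSMUSG00000031503) code for the chains of the most widespread type IV collagen network. The genes lie head to head on chromosome 8 of mouse build GRCm38, Col4a1 on the minus strand (chr8:11198423-11312826) and Col4a2 on the plus strand (chr8:11312805-11449287). Their annotated first exons overlap by 22 bases, shown here because the annotated starts of both chains lie at its ends (plus strand, chr8:11312805-11312826, RefSeq window of GRCm38.p6, capitals mark a GC box, GGGCGG):

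Col4a1 and Col4a2 overlap: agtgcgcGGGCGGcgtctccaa

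Both chains had the same order of classes in both libraries. Col4a1 stood at 566 CPM in wild-type and 627 CPM in knockout stellate-like cells, at 489 and 379 CPM in sinusoidal-like cells, at 300.2 and 261 CPM in Vwf-positive cells and at 76.3 and 107 CPM in cholangiocyte-like cells. Col4a2 stood at 335 and 453 CPM, 262 and 236 CPM, 173 and 184 CPM, and 53.1 and 75.9 CPM in the same classes. Each step of this order was beyond counting error for Col4a1. Stellate-like over sinusoidal-like cells came to 1.16-fold (1.06 to 1.26) for wild-type and 1.65-fold (1.54 to 1.78) for knockout cells. Sinusoidal-like over Vwf-positive cells came to 1.63-fold (1.32 to 2.04) and 1.45-fold (1.18 to 1.80). With thinned cells some members lost their order of sinusoidal-like and stellate-like cells. Whether these chains were among them is not given here.

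The knockout library was lower than the wild-type library for both chains in sinusoidal-like cells and higher in stellate-like cells. For Col4a1 the log2 ratio of knockout over wild type was -0.37 (-0.45 to -0.28) in sinusoidal-like and 0.15 (0.01 to 0.28) in stellate-like cells. For Col4a2 it was -0.15 (-0.26 to -0.04) and 0.43 (0.27 to 0.60). The stellate-like values depended on how cells were weighted and scaled. They were 0.67 for Col4a1 and 0.91 for Col4a2 when each cell was thinned to 1000 UMIs, and -0.036 and 0.25 when scaled by the median of ratios instead of the class total. In sinusoidal-like cells the 10 stellate markers summed to 345 and 728 CPM, higher in the knockout, and the 10 mesenchymal markers to 407 and 283 CPM, lower in it. The 10 endothelial markers summed to 582 and 639 CPM in stellate-like cells, and the part of these markers in these ratios was not tested. In cholangiocyte-like cells the ratios were 0.45 (-0.25 to 1.26) and 0.47 (-0.37 to 1.46), not distinguishable from 0 at this depth, with 23 and 52 Col4a1 UMIs.

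The number of Col4a1 UMIs per Col4a2 UMI was lower in the knockout library in sinusoidal-like, stellate-like and Vwf-positive cells. It was higher in endothelial cells with neither name. Among these classes the intervals of the libraries were apart in sinusoidal-like cells alone. Values with overlapping intervals can still differ beyond counting error, and no interval was formed for the difference between the libraries. They were also apart in neutrophil-like cells, the reference for free RNA, at 2.125 (1.14 to 4.12) and 0.738 (0.490 to 1.10). The same held for cells between lineages, at 1.59 (1.49 to 1.69) and 1.35 (1.28 to 1.42). There were 1.87 Col4a1 UMIs per Col4a2 UMI in wild-type sinusoidal-like cells (1.72 to 2.03) and 1.61 in the knockout (1.52 to 1.70). In stellate-like cells the number was 1.69 (1.51 to 1.89) and 1.38 (1.26 to 1.53). In Vwf-positive cells it was 1.73 (1.22 to 2.48) and 1.42 (1.03 to 1.97), and in endothelial cells with neither name 1.40 (1.02 to 1.93) and 1.79 (1.36 to 2.36). This is a ratio of UMIs at transcript ends, not of chains per length, so only its differences carry meaning. Within stellate-like cells the levels of the pair varied together from cell to cell, with a Spearman coefficient of 0.35 over 130 wild-type cells and 0.60 over 121 knockout cells. These cells share a library and differ in depth, and Col4a1 against the total UMIs of a cell gave 0.34 in wild-type and 0.069 in knockout stellate-like cells. In sinusoidal-like cells the coefficients of the pair were 0.22 and 0.28.

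Lama4 (ENSMUSG00000019846, chr10:38965515-39110188, plus strand) codes for a laminin alpha chain of vascular basement membranes. A laminin is a trimer of an alpha, a beta and a gamma chain. The level of Lama4 was higher in the knockout in each of the 8 classes plotted, although the stellate-like log2 ratio was -0.31 in the cluster of such cells found by Leiden clustering, a grouping of cells by overall expression. In sinusoidal-like cells it stood at 213 CPM (750 UMIs) in the wild type and 318 CPM (2534 UMIs) in the knockout, a log2 ratio of 0.58 (0.46 to 0.70) that lay between 0.48 and 0.67 in all 12 alternatives. After thinning, a Lama4 UMI was present in 18.8% (15.9 to 22.0) of 660 wild-type and 26.0% (23.4 to 28.7) of 1062 knockout cells, against 51.6% and 68.5% before. In thinned neutrophil-like cells the shares were 0.0958% and 0.214%. Median depths were 2285 and 2814 UMIs for neutrophil-like and 4742 and 6413 UMIs for sinusoidal-like cells.

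In Vwf-positive cells Lama4 stood at 100.1 and 256 CPM (30 and 93 UMIs), a log2 ratio of 1.32 (0.75 to 1.999), which was 0.56 when every endothelial cell with a Vwf UMI was counted in this class. The 8 sinusoidal markers summed to 600.3 and 765 CPM in Vwf-positive cells, with 0 and 1 of them at 0, and their part was not tested. In cholangiocyte-like cells it stood at 46.5 and 174 CPM (14 and 85 UMIs), a ratio of 1.82 (1.08 to 2.84). That value was 0.83 in the Leiden clusters of such cells, which hold 426 and 256 cells, and 0.32 with thinned cells. The 10 endothelial markers summed to 76.3 and 135 CPM in cholangiocyte-like cells, with 3 and 1 of them at 0, and their part in this difference was not tested. Stellate-like cells held little Lama4, at 13.4 and 19.8 CPM, and there the ratio of 0.54 (-0.30 to 1.45) was within counting error. Sinusoidal-like over stellate-like cells came to 15.9-fold (10.2 to 26.1) for wild-type and 16.1-fold (11.3 to 23.7) for knockout cells. Classes with little Lama4 also stood higher in the knockout, at 1.45 and 6.57 CPM in B-like and 2.25 and 3.90 CPM in neutrophil-like cells, while the sinusoidal-like share of cells was 6.68% and 9.61%. The part of cell mix and free RNA in the Lama4 difference was not tested.

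Lama4 also differed between some endothelial clusters. In Leiden clusters, made with the members left out, cluster 4 was led by the sinusoidal genes Stab2 and Clec4g and cluster 17 by Selp, Rspo3, Edn1 and Vwf. Lama4 stood at 221 and 356 CPM in cluster 4 and at 66.6 and 126 CPM in cluster 17, which is a fold of 3.31 (2.70 to 4.09) and 2.82 (2.49 to 3.22). Col4a1 differed little between these clusters, with folds of 0.974 (0.894 to 1.06) and 1.07 (0.983 to 1.16). Lamc1 had the opposite order to Lama4, at 47.7 and 49.99 CPM in cluster 4 and 80.6 and 82.3 CPM in cluster 17.

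Lamb1 (ENSMUSG00000002900, chr12:31265234-31329644, plus strand), a laminin beta chain, was found almost entirely in stellate-like cells among the named classes. Stellate-like cells held 270 UMIs (181 CPM) in the wild type and 268 UMIs (171 CPM) in the knockout, a log2 ratio of -0.08 (-0.33 to 0.17). Sinusoidal-like cells held 2 and 16 UMIs, so stellate-like cells stood 319-fold (87.5 to 2648) and 85.1-fold (51.5 to 151) above them. The wide first interval reflects the 2 UMIs on which it rests. Vwf-positive cells held 1 and 0 UMIs and cholangiocyte-like cells 1 and 2. The endothelial levels of 0.567 and 2.01 CPM lie near those of neutrophil-like cells, 0.963 and 2.10 CPM. In stellate-like cells no difference of Lamb1 between the libraries was detectable at this depth.

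Lamc1 (ENSMUSG00000026478, chr1:153218922-153332786, minus strand) codes for the gamma chain found in most laminins. Among the 4 classes its level was highest in stellate-like cells, at 152 and 171 CPM, followed by Vwf-positive cells at 83.4 and 113 CPM, sinusoidal-like cells at 49.9 and 54.2 CPM and cholangiocyte-like cells at 36.5 and 51.3 CPM. Stellate-like cells stood 3.05-fold (2.49 to 3.73) and 3.15-fold (2.70 to 3.68) above sinusoidal-like cells. The intervals of stellate-like and Vwf-positive cells overlapped in the knockout. The last step, between sinusoidal-like and cholangiocyte-like cells, was within counting error in both libraries. The log2 ratios between the libraries were 0.17 (-0.09 to 0.43) in stellate-like, 0.41 (-0.32 to 1.22) in Vwf-positive, 0.11 (-0.14 to 0.38) in sinusoidal-like and 0.42 (-0.59 to 1.66) in cholangiocyte-like cells, all of them intervals that include 0. The stellate-like value was 0.87 with thinned cells.

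The laminin chains that could pair with these members differed by class. Stellate-like cells held Lama2 at 276 and 456 CPM and Lama1 at 71.1 and 85.4 CPM next to Lamb1 and Lamc1. Lama2 stood below 9 CPM in each of the other classes plotted for laminins. Cholangiocyte-like cells held Lamc3 at 53.1 and 80.0 CPM and Lama5 at 76.3 and 65.6 CPM, both of which were at most 23.3 CPM in the other classes plotted. The beta chain Lamb2 stood at 24.4 and 19.7 CPM in sinusoidal-like cells, where Lamb1 was at background.

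**Figure D2:**
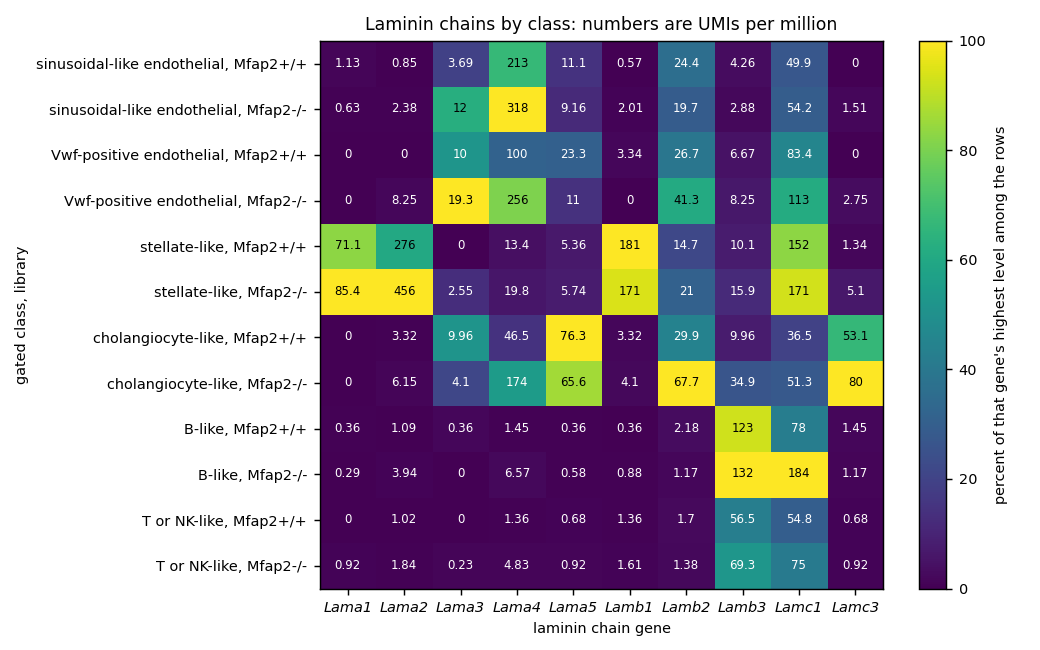
Level of 10 laminin chain genes (columns) in 6 gated classes of each library (rows); the numbers are CPM and the colour is the percent of that gene's own highest level, so colours compare classes within a gene. Lama1, Lama2 and Lamb1 are brightest in stellate-like cells, Lama4 in endothelial cells, Lamc3 in cholangiocyte-like cells and Lamb3 in lymphocytes. Lamc1 is bright in stellate-like cells and in knockout B-like cells.

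Nid1 (ENSMUSG00000005397, chr13:13437551-13512269, plus strand) codes for nidogen-1, which binds both laminin and type IV collagen. It stood at 219 and 203 CPM in stellate-like cells, 177 and 172 CPM in sinusoidal-like cells and 6.64 and 6.15 CPM in cholangiocyte-like cells, the last near the 3.85 and 4.80 CPM of neutrophil-like cells. The log2 ratios were -0.11 (-0.34 to 0.12) in stellate-like and -0.04 (-0.17 to 0.10) in sinusoidal-like cells. In Vwf-positive cells Nid1 stood at 120.1 CPM (36 UMIs) for the wild type and 308 CPM (112 UMIs) for the knockout, a ratio of 1.33 (0.81 to 1.94). In the knockout 5 cells held 71.4% of these UMIs. The ratio was 0.32 once the 5 richest cells on either side were left out, and 0.02 over all endothelial cells that had a Vwf UMI.

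Hspg2 (ENSMUSG00000028763, chr4:137468769-137570630, plus strand) codes for perlecan, a large heparan sulphate proteoglycan that anchors growth factors. It stood at 248 and 203 CPM in sinusoidal-like cells, 157 and 116 CPM in Vwf-positive cells, 83.8 and 87.3 CPM in stellate-like cells and 79.7 and 88.2 CPM in cholangiocyte-like cells. The levels in stellate-like and cholangiocyte-like cells did not differ beyond counting error, and those of Vwf-positive and stellate-like cells overlapped in the knockout. Sinusoidal-like over stellate-like cells came to 2.97-fold (2.46 to 3.61) and 2.32-fold (1.95 to 2.78). The log2 ratio of knockout over wild type was -0.29 (-0.41 to -0.17) in sinusoidal-like and 0.06 (-0.30 to 0.42) in stellate-like cells. Hspg2 lies 3.44 megabases from Mfap2 on the same chromosome.

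Col15a1 (ENSMUSG00000028339, chr4:47208161-47313167, plus strand) and Col18a1 (ENSMUSG00000001435, chr10:77052178-77166548, minus strand) code for collagens of the multiplexin family, which sit at the border between basement membrane and interstitial matrix. Among the 4 classes Col15a1 stood above background only in stellate-like cells. Wild-type cells held 32 UMIs (21.5 CPM, 14.7 to 30.3) and knockout cells 109 UMIs (69.5 CPM, 57.1 to 83.8), a log2 ratio of 1.66 (1.12 to 2.31). The share of stellate-like cells with a Col15a1 UMI was 10.8% (6.01 to 17.4) and 33.9% (25.5 to 43.0), at depths with medians of 12237 and 12211 UMIs. After thinning the numbers were 0 of 124 cells, which allows up to 2.42%, and 6 of 118 cells (5.08%). In neutrophil-like cells Col15a1 stood at 1.93 and 5.40 CPM. The 5 wild-type cells with most Col15a1 held 59.4% of it, and leaving out such cells in either library gave a ratio of 2.24. The 8 portal fibroblast markers summed to 272 and 454 CPM in stellate-like cells, with 0 and 2 of them at 0, and the 10 mesenchymal markers to 20854 and 13450 CPM. Their part in the Col15a1 difference was not tested. In the Leiden cluster of stellate-like cells, which is wider with 241 and 270 cells, the levels were 64.9 and 103 CPM and the ratio was 0.66 (0.40 to 0.93), with 64.9% of wild-type UMIs in 5 cells. Sinusoidal-like cells held 2 and 14 Col15a1 UMIs, and no UMI was found in Vwf-positive or cholangiocyte-like cells of either library. Stellate-like cells held 9.94% of all wild-type and 17.9% of all knockout Col15a1 UMIs, and cells between lineages held 77.3% and 62.9%. Endothelial cells with neither name held Col15a1 at 4.25 and 36.9 CPM.

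Col18a1 was highest in cholangiocyte-like cells, at 76.3 and 45.1 CPM (23 and 22 UMIs), and stood at 23.3 and 22.0 CPM in Vwf-positive, 15.4 and 21.7 CPM in stellate-like and 3.69 and 2.38 CPM in sinusoidal-like cells. Cholangiocyte-like and Vwf-positive cells had overlapping intervals in the knockout. None of its 4 log2 ratios between the libraries excluded 0. A Leiden cluster led by the hepatocyte genes Apoa2, Apoa1 and Alb held Col18a1 at 83.5 CPM (37 UMIs) and 133 CPM (98 UMIs), with 81.1% and 61.2% of these in 5 cells. The gene has starts far apart that an assay of transcript 3′ ends cannot separate, and it overlaps Slc19a1 on the opposite strand. Annotated antisense genes also overlap Col4a1, Col4a2, Col15a1 and Nid1, and without strand their reads could not be told from those of the members.

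RefSeq windows of 250 bases before to 50 after a start were found for 7 of the 9 genes, 8 windows in all, with none for Lama4 and Lamc1. The stretch upstream of the start and of any annotated exon is shown for Lamb1 and Col15a1, the members most restricted to stellate-like cells, and for Hspg2, a member with its highest level in sinusoidal-like cells (GRCm38.p6, plus strand for all, at chr12:31265043-31265233, chr4:47207762-47208011 and chr4:137468553-137468768). Capitals mark a GC box (GGGCGG) or a CCAAT box (CCAAT) read on either strand.

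Lamb1: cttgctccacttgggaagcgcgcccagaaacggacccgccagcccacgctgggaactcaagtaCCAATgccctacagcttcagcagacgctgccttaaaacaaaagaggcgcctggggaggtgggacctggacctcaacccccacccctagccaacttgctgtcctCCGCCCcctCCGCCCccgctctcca

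Col15a1: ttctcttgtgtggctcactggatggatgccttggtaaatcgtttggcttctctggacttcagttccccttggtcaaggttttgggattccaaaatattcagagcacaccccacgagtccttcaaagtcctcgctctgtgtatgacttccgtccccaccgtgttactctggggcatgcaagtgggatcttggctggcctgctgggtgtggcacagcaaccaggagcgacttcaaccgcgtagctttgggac

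Hspg2: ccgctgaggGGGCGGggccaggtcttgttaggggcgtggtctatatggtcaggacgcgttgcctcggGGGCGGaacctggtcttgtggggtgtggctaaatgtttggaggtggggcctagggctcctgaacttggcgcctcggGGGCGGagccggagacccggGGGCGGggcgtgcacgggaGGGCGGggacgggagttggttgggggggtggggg

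The stretches of Lamb1 and Col15a1, both found in stellate-like cells, hold different motifs. Lamb1 has 2 GC boxes and 1 CCAAT box, Hspg2 has 5 GC boxes, and the Col15a1 window has neither. The Col15a1 window rests on a RefSeq start at chr4:47208012 and ends at chr4:47208061, before the gene start of chr4:47208161 given above. The bases next to that gene start were therefore not searched. Of the 32851 windows of all genes, 35.7% hold a GC box and 37.4% a CCAAT box on either strand. A TATA box (TATAAA) is found in none of the 8 windows of the members and in 13.6% of all windows. These are letters in a window, and binding was not measured.

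The median log2 ratio of the members was -0.037 in sinusoidal-like, -0.11 in Vwf-positive, 0.17 in stellate-like and 0.12 in cholangiocyte-like cells. The median of all genes with at least 100 UMIs in the class was -0.044, 0.05, 0.18 and 0.13. Without members of at most 3 UMIs in both libraries, the median was 0.08 over 7 members in Vwf-positive and 0.43 over 6 in cholangiocyte-like cells. Over the members with at least 100 UMIs, as for all genes, it was -0.094 over 6 members in sinusoidal-like, 0.70 over 4 in Vwf-positive and 0.15 over 7 in stellate-like cells, and no member reached 100 UMIs in cholangiocyte-like cells. In sinusoidal-like cells 6 members had 100 UMIs, and 0 of them was higher or lower by 1.5-fold, against 7.76% of 9089 genes higher and 12.5% lower. In Vwf-positive cells 2 of 4 such members, Lama4 and Nid1, were higher and 0 lower, against 12.6% higher and 8.60% lower among 1372 genes. In stellate-like cells 1 of 7, Col15a1, was higher and 0 lower, against 21.9% and 12.2% of 5016 genes. In cholangiocyte-like cells 0 members had 100 UMIs, where 20.8% and 14.0% of 1601 genes were higher and lower.

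**Figure D3:**
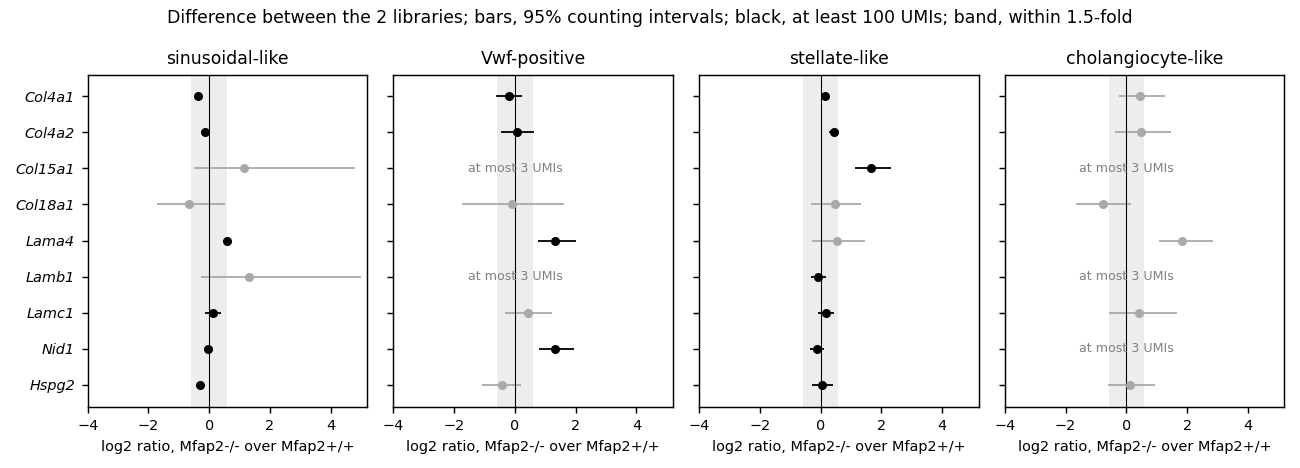
Log2 ratio of the knockout over the wild-type library for each gene in 4 classes, with 95% counting intervals; black points have at least 100 UMIs over both libraries, grey points fewer, and the band marks differences within 1.5-fold. The points past the band with black symbols are Lama4 and Nid1 in Vwf-positive cells and Col15a1 in stellate-like cells, at 1.32, 1.33 and 1.66.

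Lymphocytes held Lamc1 without most other members. In wild-type B-like cells it stood at 78.0 CPM (215 UMIs, 67.9 to 89.2) and in knockout B-like cells at 184 CPM (1257 UMIs, 174 to 194), a log2 ratio of 1.23 (1.02 to 1.45). Of 3 members with 100 UMIs in B-like cells Lamc1 alone was past 1.5-fold, where 7.58% of 7492 genes were higher and 3.54% lower. The ratio lay between 1.14 and 1.31 in all 12 alternatives, and 5 cells held 11.2% and 6.84% of the UMIs. A Lamc1 UMI was present in 18.1% (15.4 to 21.1) and 36.5% (33.9 to 39.1) of B-like cells, whose median depths were 3419 and 4764 UMIs. Thinned to equal depth, the shares were 6.71% (5.02 to 8.75) of 745 and 13.3% (11.5 to 15.2) of 1346 cells. In neutrophil-like cells the share was 1.18% and 2.72% before and 0.287% and 0.855% after thinning. In B-like cells Col4a1 stood at 10.2 and 14.5 CPM and Lamb1 at 0.363 and 0.876 CPM. The endothelial markers summed there to 183 and 223 CPM, the mesenchymal markers to 125 and 109 CPM and the 10 T or NK markers to 217 and 231 CPM. Their part in the Lamc1 difference was not tested. Nid1 stood at 20.7 and 17.1 CPM in B-like cells, with 54.4% of the wild-type UMIs in 5 cells, and Lamc1 in mononuclear phagocyte-like cells at 14.5 and 14.1 CPM.

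In T or NK-like cells Lamc1 stood at 54.8 CPM (161 UMIs) and 75.0 CPM (326 UMIs), a log2 ratio of 0.45 (0.18 to 0.73) that was -0.098 with thinned cells. It was the 1 member with 100 UMIs there and was within 1.5-fold, but past it at 0.81 with Leiden classes and at 0.77 without the 5 richest cells, against 10.5% of 6927 genes higher and 3.26% lower. Leiden clusters showed that these UMIs were uneven among T cells. Cluster 14, named T or NK-like and led by Icos, Il1rl1, Ctla4, Ikzf2 and Gata3, held Lamc1 at 258 CPM (224 to 296) and 371 CPM (343 to 400), the highest levels of the clusters plotted. Cluster 15, led by Lef1 and with Tcf7 among its leading genes, held it at 5.30 and 5.41 CPM. Cluster 14 stood 48.8-fold (22.0 to 134) and 68.5-fold (40.5 to 126) above cluster 15 and 1.75-fold (1.47 to 2.07) and 2.29-fold (2.04 to 2.57) above the stellate-like cluster. It held 187 wild-type and 323 knockout cells. Cluster 6, also T or NK-like, held 707 and 436 cells with Lamc1 at 24.8 and 30.4 CPM. Within clusters the log2 ratio was 0.52 (0.29 to 0.75) in 14 and 0.29 (-0.09 to 0.68) in 6. It was 0.19 (-0.19 to 0.56) in 12 and -0.09 (-1.44 to 1.70) in 15. Cluster 21 of the same class is not given here. The part of cluster mix in the class ratio was not tested. The beta chain gene Lamb3 was also found in B-like cells, at 123 and 132 CPM, and in T or NK-like cells, at 56.5 and 69.3 CPM. Lamb3 overlaps Hsd11b1 and G0s2 on the opposite strand, and whether the authors counted by strand is not given in the sources used here. It also overlaps 4930570N18Rik and Gm37691 on the same strand. Lamc1 overlaps Gm38009 on the same strand and the pseudogene Gm8818 on the opposite strand. Strand would not separate the reads of genes on the same strand.

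**Figure D4:**
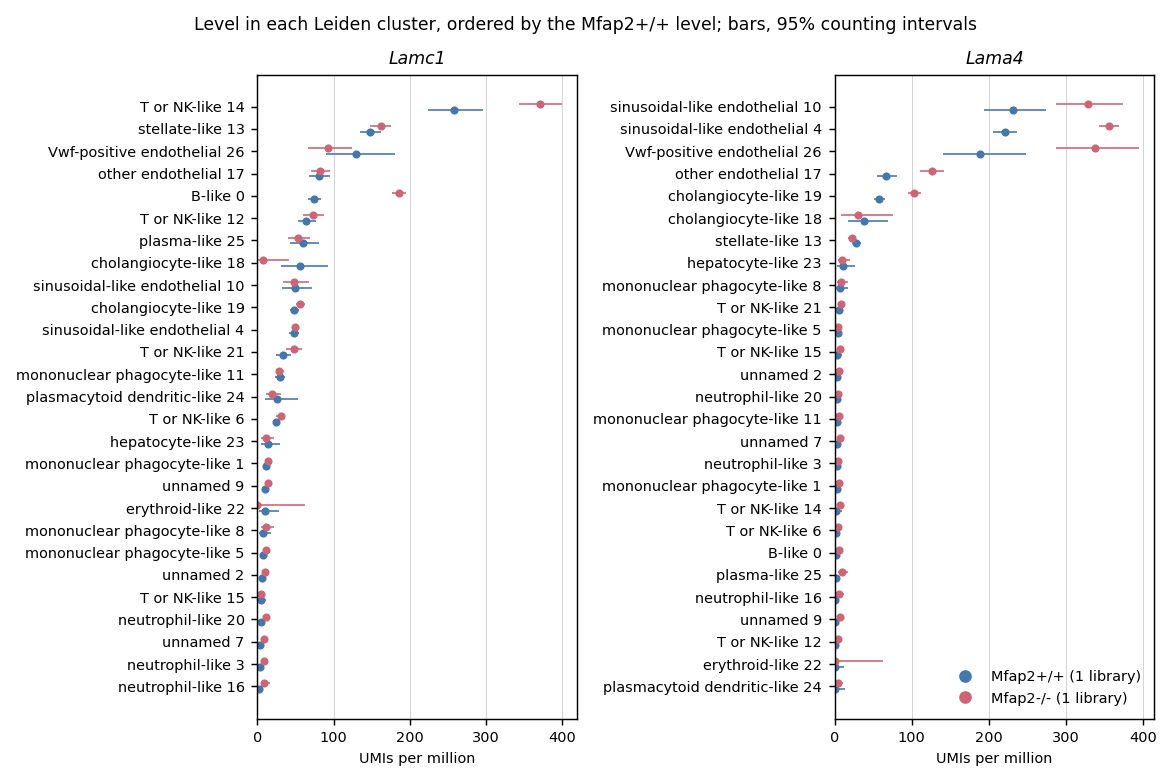
Lamc1 (left) and Lama4 (right) in CPM in 27 Leiden clusters of both libraries, ordered by the wild-type level, with 95% counting intervals. Lamc1 is highest in T or NK-like cluster 14, at 258 and 371 CPM, and Lama4 is highest in the sinusoidal-like and Vwf-positive clusters.

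Other basement membrane genes were read from 4 lists. Their counts past 1.5-fold stand beside those of all genes, of which 7.76% were higher and 12.5% lower in sinusoidal-like, 12.6% and 8.60% in Vwf-positive, 21.9% and 12.2% in stellate-like, and 20.8% and 14.0% in cholangiocyte-like cells. Of the 14 other chains, 4 had 100 UMIs in sinusoidal-like cells, where 1 was higher by 1.5-fold and 0 lower. The highest ratio was that of Lama3 (13 and 96 UMIs, 1.62, 0.87 to 2.67) and the lowest that of Lamb2 (-0.32, -0.70 to 0.09). In stellate-like cells 4 were measured, with Lama2 (0.72, 0.55 to 0.90) and Col4a5 (0.61, 0.22 to 1.01) higher by 1.5-fold and 0 lower. Agrn was lowest there at 0.03. None of them had 100 UMIs in Vwf-positive cells.

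Among 10 genes whose products associate with basement membranes, 6 were measured in sinusoidal-like cells, with 0 higher by 1.5-fold and 1 lower. That was Sparc, a collagen-binding glycoprotein, at 1222 and 778 CPM (-0.65, -0.71 to -0.60), and Pxdn was highest at 0.13. In stellate-like cells 7 were measured, 2 higher and 1 lower. Smoc2 was highest at 81.8 and 163 CPM (0.99, 0.67 to 1.31) and Tinagl1 lowest at -0.74 (-1.28 to -0.23). In Vwf-positive cells 4 were measured, with Hmcn1, a very large basement membrane protein, higher at 1.23 (0.78 to 1.74), 0 lower and Tinagl1 lowest at -0.26. In cholangiocyte-like cells 3 were measured, 0 higher and 1 lower, with Tinagl1 highest at -0.37 and Thbs1 lowest at -2.21 (82 and 28 UMIs).

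Of 12 genes for folding, modifying and exporting collagen chains, 9 were measured in sinusoidal-like cells, 1 higher and 2 lower by 1.5-fold. P4ha1, a subunit of prolyl 4-hydroxylase, was highest at 247 and 417 CPM (0.75, 0.65 to 0.86) and Plod3, a lysyl hydroxylase, lowest at -0.75 (-1.12 to -0.36). In stellate-like cells 9 were measured, 2 higher and 1 lower. The lysyl hydroxylase Plod2 was highest at 143 and 287 CPM (1.003, 0.77 to 1.25) and the collagen galactosyltransferase Colgalt1 lowest at -0.68 (-1.06 to -0.32). In Vwf-positive cells, where 12.6% of all genes were higher, 2 were measured and both were higher, P4ha1 (0.97, 0.57 to 1.40) and the collagen chaperone Serpinh1 (0.69, 0.15 to 1.28). None of these had 100 UMIs in cholangiocyte-like cells.

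Of 15 receptor genes, 7 were measured in sinusoidal-like cells, 1 higher and 1 lower. The integrin chain Itga9 was highest at 353 and 554 CPM (0.65, 0.56 to 0.74) and the laminin receptor Bcam lowest at 41.4 and 21.6 CPM (-0.94, -1.27 to -0.61). In stellate-like cells 8 were measured and all 8 lay within 1.5-fold, from Sdc4 (-0.43) to the collagen receptor Ddr2 (0.46). In Vwf-positive cells 3 were measured, with Itga9 highest at 0.59 (0.06 to 1.16) and past 1.5-fold, 0 lower and Itga1 lowest at 0.04. In cholangiocyte-like cells 4 were measured, 2 higher and 0 lower, with Itga9 highest at 1.69 (1.02 to 2.56) and Sdc4 lowest at -0.32. Itga9 and P4ha1 were thus the highest of their lists in sinusoidal-like and in Vwf-positive cells alike. Neither was higher in endothelial cells alone. P4ha1 stood at 0.998 (0.80 to 1.20) in stellate-like cells, close to Plod2, and Itga9 was highest of its list in cholangiocyte-like cells too. In stellate-like cells Itga9 stood at 0.30 (0.16 to 0.45).

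The genes whose level across cell classes was most like the mean of the 9 members were Slc10a6, Nhs, Adamts4, Obsl1, Col5a2, Ebf4, Ptpn21, Ptprg, Mcc and Atp8b1. Likeness was Pearson's r of log2(CPM + 1) over 7 classes in both libraries, 14 profiles, and ran from 0.989 for Slc10a6 to 0.982 for Atp8b1. The classes share libraries and are far from independent. Col5a2, a fibrillar collagen chain, stood at 270.1 and 424 CPM in stellate-like and 55.9 and 59.1 CPM in sinusoidal-like cells. On the same measure the members themselves ran from 0.982 for Col4a1 to 0.625 for Lamc1, the member least like the others.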

How the data were processed

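The deposited files are raw counts of UMIs per gene and barcode for 1 library per genotype. The authors used Cell Ranger, given as 7.0.1 per the file headers and as 3.1.0 with Seurat and build mm10 per the submitters' processing notes. Whether intronic reads or strand were used in counting, and any filter on cells, is not given in the sources used here. The fewest UMIs of a barcode were 500. Gene positions come from GENCODE M21 (GRCm38), which holds 32158 (99.6%) of the 32285 identifiers. No other column of per-sample values was left unused (0).

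Barcodes with fewer than 200 genes or over 20% mitochondrial UMIs were removed (413 wild-type, 149 knockout). The highest Scrublet scores (scanpy 1.11.5) were removed at 0.8% per 1000 cells, 1034 and 1295 cells. Scrublet's own threshold was not used, since it marked only 1 cell of the wild type and 727 of the knockout. This left 10336 and 11428 cells. A cell took the lineage with the highest share of detected markers if at least 3 were detected and the share was at least 2 times that of every other lineage. Sinusoidal-like and stellate-like cells needed 2 markers of their own list, and Vwf-positive cells a Vwf UMI and a higher share of vascular than sinusoidal markers.

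UMIs were summed per class and library and scaled to 1000000 (CPM). Log2 ratios add 1 count to each sum. Intervals are exact Poisson (CPM), Clopper-Pearson (shares) and exact conditional (ratios), at 95%. Cells were thinned to 1000 UMIs, with shallower cells left out. A count of 0 is given with the limit of 3 counts. Leiden clusters (leidenalg 0.10.2; 2000 variable genes, 30 components, 15 neighbours, resolution 1) left the members out. The ratio intervals, the lineage gate and the totals after thinning were tested on simulated counts, and Leiden clustering was not. The simulated class sums were Poisson draws, and the simulated cells held markers of 1 lineage and no free RNA. These tests therefore cannot show how the steps deal with free RNA or with UMIs held by few cells. Genes are named as all 9 members in the 4 classes, and per list and class the highest and lowest ratio. Single genes and clusters beyond this rule were chosen after their values were seen. They are the laminin chains, Leiden clusters 4, 6, 12, 14, 15, 17, 26 and that of hepatocyte genes, and Col5a2. The members, lists and tests were chosen with earlier results of these data known. Some results on other chains are not reported here. Of 12 other settings tried (doublets, marker minimum, Vwf rule, cell filter, collagen markers, Leiden classes, scaling, weighting, thinning, richest cells), the gate without free-RNA markers was chosen after seeing the data.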

Additional observations from a re-analysis of the deposited data

Results flagged for a closer look

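Both type IV collagen chains lay on opposite sides in stellate-like and sinusoidal-like cells. Col4a1 was higher in the knockout library in stellate-like cells (log2 ratio 0.15) and lower in sinusoidal-like cells (-0.37), so that the ratios differed by 0.52. Col4a2 was higher in stellate-like cells (0.43) and lower in sinusoidal-like cells (-0.15), a difference of 0.59. With 1 library per genotype these differences were not tested. For Col4a1 the stellate-like side of the pattern was -0.036 with median of ratios scaling.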

How the results depend on the processing

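Across the 12 alternatives, the members' median log2 ratio in each of the 4 classes stayed within its counting interval except with thinned cells. The limits of that interval are not given here. With thinned cells the median was 0.67 in stellate-like cells and -1.0 in cholangiocyte-like cells, of which 24 and 48 cells remained. Its sign was not stable. In Vwf-positive cells the median was -0.11 in the main setting and 0.53 with Leiden classes. In stellate-like cells it was 0.17 and, with median of ratios scaling, -0.018. In sinusoidal-like cells it ran from -0.10 to 0.099. The number of members whose order of sinusoidal-like and stellate-like levels was kept in both libraries has no interval: it was 6 of 9 with thinned cells, 7 of 9 without the 5 richest cells and 9 of 9 under the other 10. For single members, 357 values stayed within their intervals, 37 left them, and 2 whose interval excluded 0 changed sign: Col4a1 in stellate-like cells to -0.036 with median of ratios scaling and Lamc1 in T or NK-like cells to -0.098 with thinned cells. Ratios whose interval held 0 changed sign too, among them Lama4 (-0.31) and Hspg2 (-0.28) in stellate-like and Col4a1 (0.53), Hspg2 (0.65) and Lamc1 (-0.49) in Vwf-positive cells with Leiden classes, Col18a1 in stellate-like cells with thinned cells (-2.25) and Col4a1 in cholangiocyte-like cells with the mean of per-cell CPM (-0.33). The cause of these was not tested. Median of ratios scaling moved all ratios by -0.18 in stellate-like and -0.14 in cholangiocyte-like cells. The gate without neutrophil and haemoglobin markers of free RNA was chosen after seeing the data and raised cholangiocyte-like cells from 33 to 101 in the wild type and from 53 to 85 in the knockout. No paired analysis was possible because each genotype has 1 library, and no library could be left out. Depth limits Vwf-positive and cholangiocyte-like cells most, with 299826 to 487767 UMIs per class and library.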

Other observations

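Endothelial cells without a sinusoidal or Vwf-positive name, 59 wild-type and 52 knockout cells, also held type IV collagen. Col4a1 stood at 417 and 624 CPM there, higher in the knockout. In sinusoidal-like cells it stood at 489 and 379 CPM and in Vwf-positive cells at 300.2 and 261 CPM. In the endothelial cells without a name Nid1 stood at 323 and 291 CPM and Hspg2 at 226 CPM in both libraries. Lamb1, at background in sinusoidal-like cells, had 1 UMI in the wild type and 11 UMIs (45.2 CPM) in the knockout of these cells. Portal fibroblast-like cells numbered 13 and 5. In the wild type they held Col4a2 at 426 CPM (64 UMIs) and Col15a1 at 73.2 CPM (11 UMIs), and in the knockout 1 Col15a1 UMI was found.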
